A study of Homo sapiens with 12 samples.

Results

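The expression of 10 carbonic anhydrase genes was followed through RNA-seq of HEK293T cells with and without the HNRNPUL1 gene, which encodes the RNA-binding protein hnRNP UL1. The 10 members were taken by symbol from count tables of 61163 genes: CA2, CA3, CA4, CA5B, CA8, CA9, CA11, CA12, CA13 and CA14. CA2 was chosen by its large fall in the knockout, so its difference between the genotypes is given as a description without a test, while the other 9 were tested. HEK293T is an established human embryonic kidney line that expresses a viral large T antigen. HEK WT cells were wild-type, and HEK UL1 KO cells were made from the same line with CRISPR-Cas9 guides to exons of HNRNPUL1. The sources used here do not say whether the knockout line was 1 clone or a pool, so the knockout and other differences between these lines cannot be told apart. All cells were grown in the same medium without further treatment. Total RNA, not depleted of rRNA, came from nucleoli (NO fraction) and from the remaining cytoplasmic-nuclear (CN) fraction, with 3 biological replicates for each genotype and fraction, 12 libraries in all.

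Carbonic anhydrases are zinc enzymes that interconvert carbon dioxide and bicarbonate with release or uptake of a proton. Cells use them, together with bicarbonate transporters and proton exporters, to set the pH inside and around them, and in the kidney they serve bicarbonate reabsorption and acid secretion. The family is divided by where the protein works: in the cytosol (CA2, CA3, CA13), in mitochondria (CA5B) or at the cell surface (CA4, CA9, CA12, CA14). CA8 and CA11 are related proteins that have lost residues needed for catalysis. Inherited loss of CA2 causes osteopetrosis with renal tubular acidosis.

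Libraries held 37141666 to 83019079 counts in NO and 54349399 to 104040073 in CN, and rRNA genes took 55.29 to 65.08% of the counts in NO and 73.93 to 78.71% in CN. Levels are given as CPM, counts scaled to a common library total after TMM, a method that aligns libraries on the bulk of their genes. The target, HNRNPUL1, was lower in HEK UL1 KO than in HEK WT without overlap in either fraction, with a log2 fold change of -2.00 ± 0.323 (SE) in NO and -1.83 ± 0.0828 in CN (edgeR adjusted p = 0.00649 and 2.12e-07), which left 26.3 and 26.5% of the HEK WT mean. All 9 HEK293 line markers were detected, LHX1 at means of only 0.198 CPM in NO and 0.259 CPM in CN of HEK WT. Markers of other cells, given below, also had counts, so detection alone does not identify the line. In CN 4 of them rose and 3 fell in HEK UL1 KO, beside 15.6% higher and 22.3% lower of all genes tested. Beside KRT8, those that rose were LHX1 (1.85, edgeR adjusted p = 0.000285), KRT18 (1.28, edgeR adjusted p = 0.000545) and PAX2 (0.76, edgeR adjusted p = 0.0131). LHX1, with 12 to 58 counts per library in CN, entered this test through HEK UL1 KO, where it was higher, so its call is a description. Of those that fell, VIM was at -1.47 (edgeR adjusted p = 9.16e-06). The third that fell, beside INA and VIM, was NEFM, a neurofilament (-0.54, edgeR adjusted p = 0.037), which lost its call when any of 5 of the 6 libraries was left out, all but replicate 3 of HEK WT (edgeR adjusted p = 0.0571 to 0.117), and with total counts (-0.38, 0.311). The largest changes were those of KRT8, an epithelial keratin (2.30, edgeR adjusted p = 3.39e-06), and INA, a neuronal intermediate filament (-4.60, edgeR adjusted p = 4.08e-07). With 7 to 256 counts per library in CN, INA entered this test through HEK WT, where it was higher, so its call in CN is a description. In NO, 2 markers fell, beside 0.574% of all genes tested. They were INA (-3.12, edgeR adjusted p = 0.000171) and VIM, a mesenchymal filament (-1.60, edgeR adjusted p = 0.0246). VIM lost its call there when any of 4 of the 6 libraries was left out, all but replicate 3 of either genotype (edgeR adjusted p = 0.0503 to 0.122). The 10 marker genes of other cells (blood, fibroblast, epithelial, liver and endothelial) summed to 4.085 to 6.837 CPM in NO of HEK WT, 6.988 to 7.804 in NO of HEK UL1 KO, 1.276 to 2.195 in CN of HEK WT and 2.816 to 3.552 in CN of HEK UL1 KO. In CN, 5 of them were tested and LUM and COL1A1 rose (1.72 and 0.75, edgeR adjusted p = 0.00508 and 0.0137). With 5 to 24 counts per library in CN, LUM entered the test through HEK UL1 KO, where it was higher. Its call is therefore a description. COL1A1 had an edgeR adjusted p = 0.0537 without replicate 1 and 0.0552 without replicate 3 of HEK UL1 KO. In NO 0 of 10 were called by edgeR, also 0 at an unadjusted p under 0.05. One library stood apart in NO: without replicate 3 of HEK WT, 9133 genes in all were called between the genotypes in NO, against 327 with it. In CN, replicate 3 of HEK WT also differed from the others of its group. Its TMM factor was 0.5725 against 0.787 and 0.8244, and its rRNA part 78.71% against 74.72 and 73.93%. Without it 10301 genes were called in CN, against 10323 with it.

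CA2, a very fast cytosolic enzyme, was the most abundant member per kilobase of transcript and the one that fell most in HEK UL1 KO. In CN, its level was 34.7, 34.5 and 28.1 CPM in the 3 HEK WT libraries and 2.58, 2.39 and 2.54 CPM in the 3 HEK UL1 KO libraries. The genotypes lay far apart, and the HEK UL1 KO libraries were close to each other. In NO, it was 17.1, 20.8 and 8.85 CPM in HEK WT and 1.32, 1.30 and 1.69 CPM in HEK UL1 KO. Replicate 3 of HEK WT was the lowest of its group but still above every HEK UL1 KO library. The group means were 32.4 ± 3.74 and 2.50 ± 0.0977 CPM in CN (SD, n = 3) and 15.6 ± 6.12 and 1.44 ± 0.219 CPM in NO, so that HEK UL1 KO held 7.72% of the HEK WT level in CN and 9.22% in NO. The fitted log2 fold change was -3.62 ± 0.115 (SE) in CN, the 40th lowest of 27234 genes tested, and -3.52 ± 0.366 in NO, the 12th lowest of 34836. These fits scale the libraries of 1 fraction only and therefore differ somewhat from the folds of the displayed levels, which are -3.70 in CN and -3.44 in NO. In bulk RNA, fewer cells that express a gene and less of its RNA per cell cannot be told apart.

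**Figure D1:**
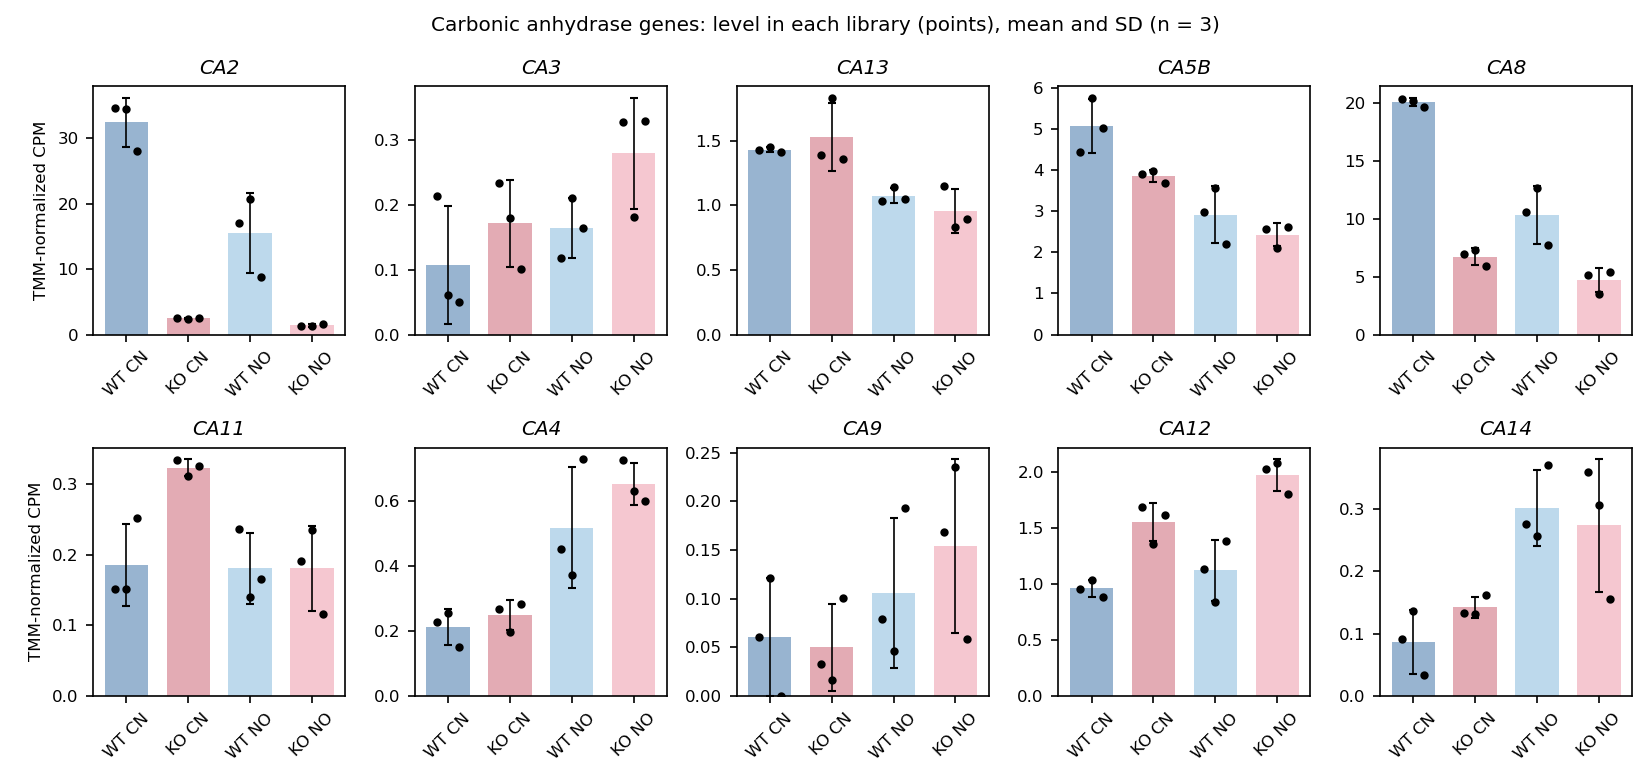
Level of each of the 10 carbonic anhydrase genes in TMM-normalized CPM on a linear axis from 0, for HEK WT and HEK UL1 KO in CN and NO. Points are libraries, ordered by replicate number, bars are means and error bars are SD (n = 3); CA2 had 28.1 to 34.7 CPM in CN of HEK WT and 2.39 to 2.58 CPM in CN of HEK UL1 KO.

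Per kilobase of exonic length, the order of the members in CN of HEK WT began with CA2 at 16.2 ± 1.87 CPM per kb, CA8 at 2.61 ± 0.0448, CA5B at 0.595 ± 0.0775 and CA13 at 0.256 ± 0.00386. Each of these 4 lay above the next without overlap. CA12 (0.138), CA11 (0.0951), CA4 (0.0877), CA3 (0.0473), CA9 (0.0379) and CA14 (0.0264 CPM per kb) followed, and each of these overlapped its neighbour in the order. In CN of HEK UL1 KO, CA2 was still first at 1.25 ± 0.0487 CPM per kb, now close above CA8 at 0.874 ± 0.0984. In NO of HEK UL1 KO, CA2 (0.716) and CA8 (0.611 CPM per kb) overlapped. Of the summed level of the 10 members per kilobase, CA2 made up 78.9 to 81.6% in the CN libraries of HEK WT and 34 to 37.5% in those of HEK UL1 KO. In NO, its part was 65.4 to 78.6% in HEK WT and 22.8 to 30% in HEK UL1 KO. The summed level itself was 17.7 to 21.2 CPM per kb in CN of HEK WT and 3.38 to 3.58 in CN of HEK UL1 KO. The ratio of CA2 counts to CA8 counts does not depend on how libraries are scaled: it was 1.70, 1.71 and 1.42 in CN of HEK WT and 0.370, 0.325 and 0.431 in CN of HEK UL1 KO. In NO it was 1.15 to 1.64 in HEK WT and 0.254 to 0.373 in HEK UL1 KO, so the genotypes did not overlap in either fraction. The part and the ratio both include the fall on which CA2 was chosen, so their differences between the genotypes are a description only. The 2 genes differ in length, so the ratio does not compare their levels with each other.

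CA2 lies on chromosome 8 of GRCh38.p14 from 85464007 to 85481493 in a cluster with CA13 (85245458 to 85284073), CA1 and CA3 (85438859 to 85449040). CA13, another cytosolic enzyme, had 1.43, 1.45 and 1.41 CPM in CN of HEK WT and 1.39, 1.83 and 1.36 CPM in CN of HEK UL1 KO. The groups overlapped, with a log2 fold change of 0.18 (95% interval -0.142 to 0.501, edgeR adjusted p = 0.411), and in NO it was -0.21 (-0.772 to 0.346, edgeR adjusted p = 0.72). CA3, a muscle isozyme of low activity, had 3 to 14 counts per library in CN and 6 to 43 in NO, and its differences of 0.75 and 0.72 did not pass the test (edgeR adjusted p = 0.333 and 0.433). The antisense gene CA3-AS1 overlaps CA3 over 7235 bases and the first 909 bases of the CA2 span. Its CN levels were 0.425, 0.409 and 0.269 CPM in HEK WT and 0.0836, 0.180 and 0.203 CPM in HEK UL1 KO, from 5 to 28 counts. It entered the test in CN through HEK WT, where it was higher, so its call there is a description. In CN it passed the test at a log2 fold change of -1.17 ± 0.408 (edgeR adjusted p = 0.0429), and the call was lost when any of 5 of the 6 libraries was left out, all but replicate 3 of HEK WT (edgeR adjusted p = 0.0616 to 0.159). Since the strand setting of the counting is not stated, its reads and those of CA2 and CA3 cannot be told apart. In NO, its log2 fold change was -0.02 ± 0.367.

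Of the 45 genes annotated with a start within 1 Mb of the CA2 start, 40 were in the tables. In NO, 29 of them were tested and 0 passed the test, beside 0.365% higher and 0.574% lower of all genes. In CN, 19 were tested, 0 were higher and 4 were lower, CA3-AS1, E2F5 (-0.48), RBIS (-0.64) and WWP1 (-0.43), beside 15.6% higher and 22.3% lower of all genes, so the count of lower genes is near this background. E2F5 is a transcription factor of the cell cycle, RBIS takes part in ribosome assembly and WWP1 is a ubiquitin ligase. These falls were much smaller than that of CA2, and those of E2F5, RBIS and WWP1 missed the threshold with total counts in place of TMM. Of the genes tested, 9 in CN and 11 in NO were REXO1L copies, near-identical genes among which reads cannot be told apart, with values from 0.608 to 0.771 in CN and 0.453 to 1.11 in NO. The others had a median log2 fold change of 0.105 in CN (10 genes) and 0.356 in NO (18 genes), beside 0.0382 and 0.00396 over all genes tested. These others still hold LOC101929601 and LOC101929627, which start among the copies. Their values were 0.586 and 0.596 in CN and 0.612 and 0.611 in NO. The medians therefore do not describe the neighbours outside this stretch. Of the others, 4 of 10 in CN and 6 of 18 in NO were below 0.

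**Figure D2:**
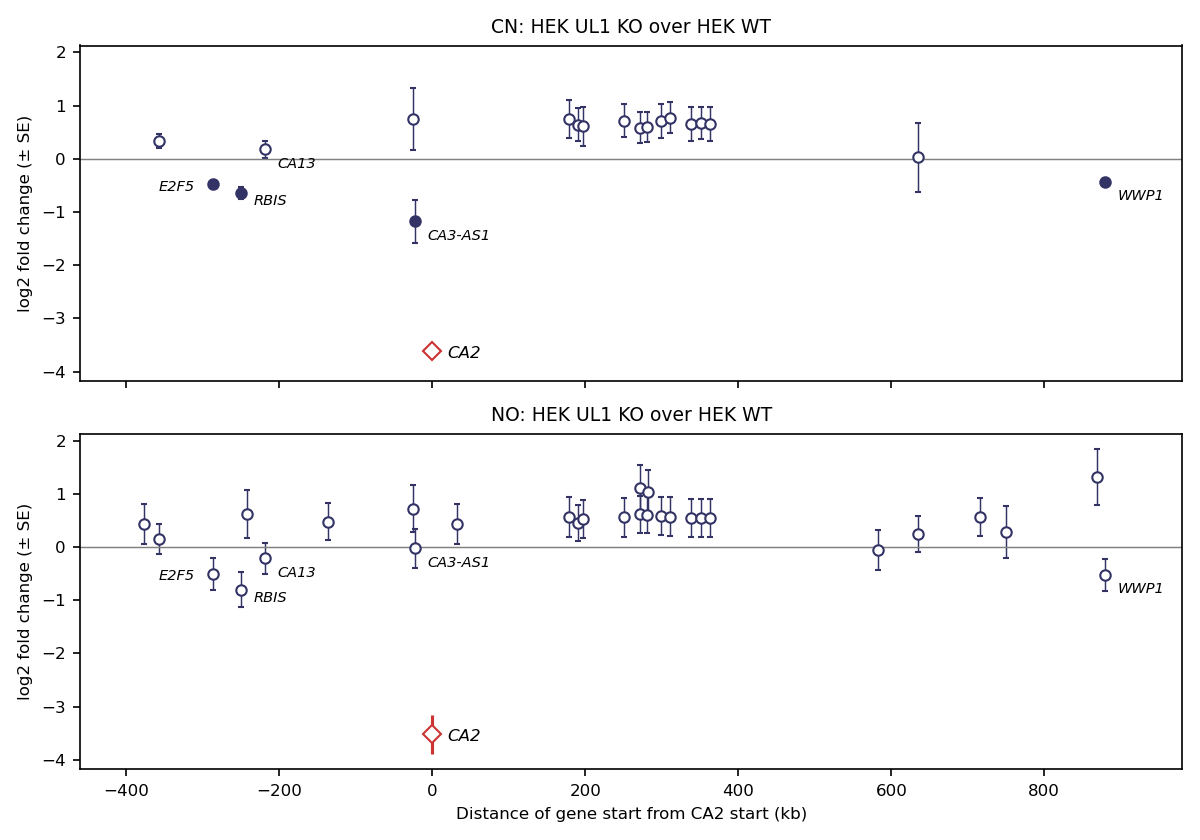
Log2 fold change (HEK UL1 KO over HEK WT, ± SE) of genes around CA2 against the distance of their start from the CA2 start in kb, in CN (upper panel) and NO (lower panel). Filled points had an adjusted p under 0.05, the diamond is CA2, which was not tested, at -3.62 in CN and -3.52 in NO, and the 4 filled points in CN are E2F5, RBIS, CA3-AS1 and WWP1.

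The genes whose pattern over the 12 libraries was most like that of CA2 were PURPL, LOC102723724, SNAI2, TENM1 and ZC3HAV1L. Likeness was the root mean square difference of log2(CPM + 0.5), centred on each gene's mean, among 18067 genes with at least 50 counts on average per library. It was 0.199 for PURPL, 0.211 for LOC102723724, 0.257 for SNAI2, 0.469 for TENM1 and 0.475 for ZC3HAV1L. PURPL, a long non-coding RNA, averaged 19.6 and 1.41 CPM in CN of HEK WT and HEK UL1 KO and 9 and 0.897 CPM in NO. In CN, SNAI2 averaged 6.72 and 0.202 CPM and ZC3HAV1L 6.83 and 0.0766 CPM, deeper falls than that of CA2. The added 0.5 shrinks the falls of genes at such low levels and so brings them closer to CA2. The pattern includes the fall in the knockout on which CA2 was chosen, so this likeness is a description only. Among the other members that had enough counts, CA8 was ranked 57 (0.985), CA5B 5589, CA13 10251 and CA12 15154. The closest 5 depended in part on the scaling: without TMM they were SNAI2, PURPL, LOC102723724, ZC3HAV1L and RPL22L1, of which 4 are shared, while with TMM without the rRNA genes all 5 were shared.

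CA5B, the mitochondrial member, is on the X chromosome, and its pseudogene CA5BP1 starts and ends outside it, 34548 bases away. Because the 2 are related copies, the split of reads between them is uncertain. CA5B had 4.43, 5.75 and 5.02 CPM in CN of HEK WT and 3.90, 3.98 and 3.69 CPM in CN of HEK UL1 KO. Every HEK UL1 KO library lay below every HEK WT library, but the log2 fold change of -0.31 ± 0.116 missed the threshold (edgeR adjusted p = 0.056). It passed when replicate 1 of HEK WT was left out (-0.40, edgeR adjusted p = 0.03). With total counts the CN groups of CA5B overlapped. CA5BP1 was level in CN, at 0.02 (95% interval -0.119 to 0.162). In NO, CA5B changed by -0.33 ± 0.279 (edgeR adjusted p = 0.562) with overlapping groups.

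Of the catalytically inactive members, CA8 fell in CN. CA8 binds the inositol trisphosphate receptor and is best known from Purkinje cells of the cerebellum. It had 20.4, 20.2 and 19.7 CPM in CN of HEK WT and 6.96, 7.35 and 5.89 CPM in CN of HEK UL1 KO. The HEK WT libraries were within 1 CPM of each other and far above the others, and HEK UL1 KO held 33.5% of their mean. The log2 fold change was -1.50 ± 0.0881 (edgeR adjusted p = 1.53e-06), and the call was kept whichever library was left out (-1.55 to -1.40). In NO, CA8 had 10.6, 12.7 and 7.72 CPM in HEK WT and 5.19, 3.49 and 5.44 CPM in HEK UL1 KO. The groups did not overlap there either, yet the log2 fold change of -1.21 ± 0.300 missed the threshold (edgeR adjusted p = 0.0625). Without replicate 3 of HEK WT it was -1.42 and passed (edgeR adjusted p = 0.002), and DESeq2 also called it on all libraries (-1.26, adjusted p = 0.00525).

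CA11, the other inactive member tested, is a secreted protein of the nervous system and had 6 to 25 counts per library. In CN it had 0.152, 0.151 and 0.252 CPM in HEK WT and 0.334, 0.311 and 0.325 CPM in HEK UL1 KO. The groups did not overlap, and the log2 fold change of 0.89 ± 0.346 missed the threshold (edgeR adjusted p = 0.0636) unless replicate 3 of HEK WT was left out (1.19, edgeR adjusted p = 0.0209). With 10 to 15 counts in HEK WT and 16 to 20 in HEK UL1 KO, CA11 entered this test through HEK UL1 KO, where it was higher. These values are given as a description. In NO, its log2 fold change was -0.04 ± 0.472 (edgeR adjusted p = 0.97). CA4, a membrane-anchored enzyme of kidney tubule and lung capillaries, had 9 to 17 counts in CN and 16 to 95 in NO. Its differences of 0.30 ± 0.371 in CN and 0.26 ± 0.336 in NO did not pass the test (edgeR adjusted p = 0.553 and 0.712). CA14, a transmembrane enzyme, had 2 to 9 counts in CN, too few to be tested there, and -0.17 ± 0.418 in NO (edgeR adjusted p = 0.854).

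CA9 and CA12 are transmembrane enzymes with the active site outside the cell, both known as genes induced by low oxygen and raised in tumours. Hypoxia-inducible factors bind DNA at sites with the core ACGTG or GCGTG, so the 250 bases before each start are shown, 5′ to 3′ on the strand of the gene, with that core on either strand in capitals. The sequences are RefSeq promoters of GRCh38.p14, for CA9 chr9:35673678-35673927 on the plus strand and for CA12 chr15:63381847-63382096 on the minus strand.
CA9: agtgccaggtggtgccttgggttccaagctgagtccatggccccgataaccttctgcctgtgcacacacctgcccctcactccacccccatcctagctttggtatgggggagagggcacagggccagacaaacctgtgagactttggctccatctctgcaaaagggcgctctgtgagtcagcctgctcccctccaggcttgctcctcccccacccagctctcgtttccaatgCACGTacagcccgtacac
CA12: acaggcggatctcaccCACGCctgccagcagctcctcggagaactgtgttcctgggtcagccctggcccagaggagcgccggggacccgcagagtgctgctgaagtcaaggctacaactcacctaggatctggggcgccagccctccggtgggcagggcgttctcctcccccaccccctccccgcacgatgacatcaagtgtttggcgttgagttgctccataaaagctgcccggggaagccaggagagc
Each window holds the core 1 time, on the strand opposite to the gene. In that of CA9 it is ACGTG (read as CACGT), beginning 18 bases before the start, and in that of CA12 it is GCGTG (read as CACGC), beginning 234 bases before it. Of 35116 RefSeq promoter windows of this length, 18.5% hold ACGTG, 32.2% hold GCGTG and 43.2% hold at least 1 of them on either strand. Matches of the 2 forms can share bases, and a window with both counts once in the last share. A match describes the letters and not binding.

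CA12 was higher in HEK UL1 KO in CN, with 0.957, 1.04 and 0.890 CPM in HEK WT and 1.69, 1.36 and 1.62 CPM in HEK UL1 KO. The groups did not overlap, and the log2 fold change of 0.77 ± 0.172 passed the test (edgeR adjusted p = 0.00538), also whichever library was left out (0.69 to 0.879). In NO, CA12 had 1.14, 0.840 and 1.39 CPM in HEK WT and 2.03, 2.08 and 1.81 CPM in HEK UL1 KO, again without overlap. There the log2 fold change of 0.75 ± 0.280 missed the threshold (edgeR adjusted p = 0.205), and it passed without replicate 3 of HEK WT (0.88, edgeR adjusted p = 0.0193). CA9 stayed near the limit of counting, with 4, 8 and 0 counts in CN of HEK WT and 2, 1 and 5 in CN of HEK UL1 KO. It was not tested in CN, and the count of 0 allows up to 0.0504 CPM. In NO, CA9 had 2 to 14 counts in HEK WT and 3 to 22 in HEK UL1 KO, with overlapping groups and a log2 fold change of 0.40 ± 0.591 (edgeR adjusted p = 0.749).

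Counted over the 9 members other than CA2, 7 passed the filter in CN, of which 1 was higher (CA12) and 1 lower (CA8) in HEK UL1 KO. Over all genes tested in CN, 15.6% were higher and 22.3% lower, so the members' count is near this background. Groups without overlap were found in CN for 4 of the 7, CA5B and CA8 lower and CA11 and CA12 higher, beside 52.8% of all genes. CA11 passed the filter through HEK UL1 KO, where it was higher, so its place in this count supports nothing. With total counts there were also 4, CA13 taking the place of CA5B. In NO, all 9 passed the filter and 0 were called by edgeR, with 2 at an unadjusted p under 0.05 and 1 called by DESeq2, beside 0.365% higher and 0.574% lower of all genes. Of the 9, 2 members, CA8 and CA12, had groups without overlap in NO, beside 20.0% of all genes. The median log2 fold change was 0.295 over the 7 in CN and -0.0444 over the 9 in NO, beside 0.0382 and 0.00396 over all genes. The members at low counts lie in the range where the libraries also differed in genes that are silent in most cells: 408 olfactory receptor genes, a set chosen after the data were seen, summed to 37.42, 47.92 and 75.88 CPM in NO of HEK WT and to 60.05 to 69.4 CPM in NO of HEK UL1 KO. In CN they summed to 19.66 to 29.11 CPM in HEK WT and 28.65 to 34.58 CPM in HEK UL1 KO. Their part in the results on low members was not tested.

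**Figure D3:**
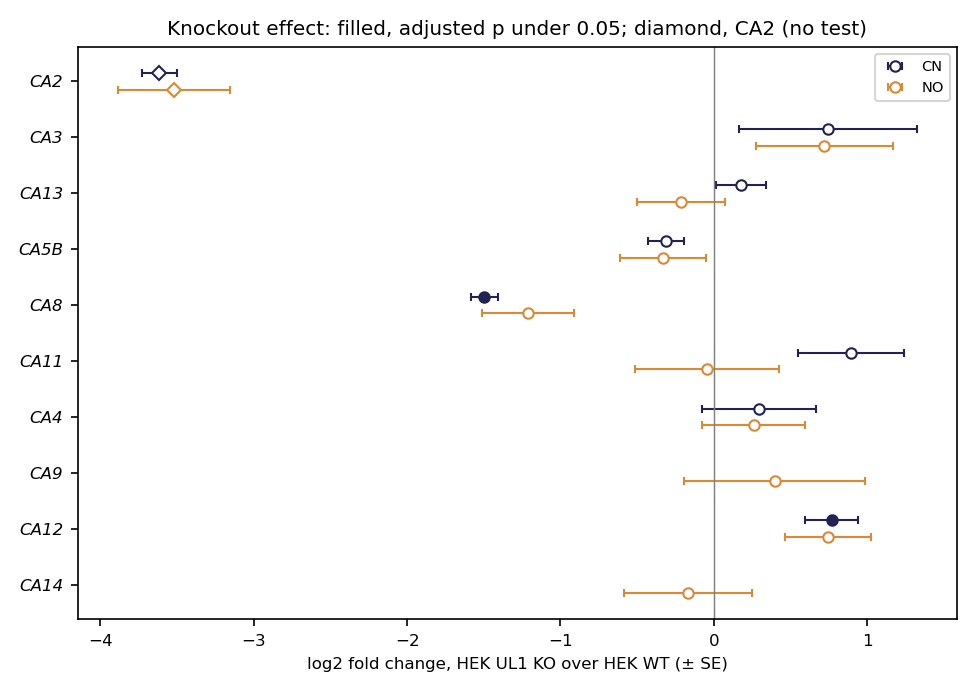
Log2 fold change (HEK UL1 KO over HEK WT, ± SE) of each member in CN and NO, with filled points for an adjusted p under 0.05. The diamonds are CA2, which was selected on this difference and not tested; of the others, CA8 (-1.50) and CA12 (0.77) are filled, both in CN, and CA9 and CA14 have no point in CN because they did not pass the filter.

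Whether the knockout effect differed between the fractions was tested as an interaction over all 12 libraries. Of the 9 members, 0 were called by edgeR, 0 had an unadjusted p under 0.05 and DESeq2 called 0, beside 0.114% of all genes. For CA8, the effect in NO minus that in CN was 0.45 (95% interval -0.139 to 1.04). For CA12 it was 0.11 (-0.509 to 0.723). For CA2, given without a test, it was 0.25 ± 0.358 (SE), and -0.04 without replicate 3 of HEK WT in NO.

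Between the fractions, which the choice of CA2 did not use, its RNA was lower in NO than in CN relative to the bulk of genes. In HEK WT the log2 fold change of NO over CN was -0.82 ± 0.239 (edgeR adjusted p = 0.0168) and in HEK UL1 KO it was -0.83 ± 0.160 (edgeR adjusted p = 0.000767). CA8 was also lower in NO, at -0.72 ± 0.158 in HEK WT and -0.55 ± 0.171 in HEK UL1 KO (edgeR adjusted p = 0.00607 and 0.012). In HEK UL1 KO the call of CA8 was lost with TMM without the rRNA genes (-0.44, edgeR adjusted p = 0.0537) and with at least 10 counts in every library (-0.11, 0.58). CA5B was lower at -0.55 ± 0.192 and -0.69 ± 0.141 (edgeR adjusted p = 0.0343 and 0.0011), and in HEK WT the call was lost without replicate 1 in NO (0.0672) or replicate 2 (0.124) or 3 (0.0647) in CN. It was lost there also with TMM without the rRNA genes (-0.48, edgeR adjusted p = 0.0717), and with at least 10 counts in every library in both genotypes (-0.32 and -0.25, 0.136 and 0.122). With total counts in place of TMM, CA2 was at -0.59 in HEK WT and -0.08 in HEK UL1 KO and missed the threshold in both, and CA8 and CA5B turned to 0.22 and 0.07 in HEK UL1 KO, while the median of all genes was then 0.369 in HEK WT and 0.791 in HEK UL1 KO, against 0.0182 and 0.0319 with TMM.

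CA4, of the cell surface, was higher in NO. For CA4 the log2 fold change was 1.59 ± 0.451 in HEK WT and 1.38 ± 0.253 in HEK UL1 KO (edgeR adjusted p = 0.0151 and 0.000587). In HEK WT it had 9 to 17 counts in CN and 16 to 53 in NO, so it entered that test through NO, where it was higher. The HEK WT call is therefore a description that supports nothing, and there CA4 left the test with at least 10 counts in every library. In HEK WT it missed the threshold without replicate 3 in NO (1.15, edgeR adjusted p = 0.0564) or without replicate 3 in CN (1.32, 0.0559), and with total counts (2.03, 0.0583). CA14 had 2 to 9 counts per library in CN and 8 to 47 in NO, so it entered this test through NO, where it was higher, and its calls are given as a description that supports nothing. Its log2 fold change was 2.05 ± 0.528 and 0.99 ± 0.376 (edgeR adjusted p = 0.0103 and 0.0306), it left the test when at least 10 counts were asked of every library, and in HEK UL1 KO it passed only while replicate 1 in NO and all 3 replicates in CN were kept (edgeR adjusted p = 0.0777 to 0.176 without one of them). CA13 and CA11 were lower in NO in HEK UL1 KO, at -0.68 ± 0.195 and -0.84 ± 0.322 (edgeR adjusted p = 0.00798 and 0.0318). CA11 had 16 to 20 counts per library in CN and 6 to 25 in NO there. It entered this test through CN, where it was higher, so its call is a description. With total counts CA13 turned to 0.10 and CA11 came to -0.07, and CA11 lost its call without replicate 1 (0.0914) or 3 (0.0539) in NO or replicate 1 (0.0639) or 2 (0.0523) in CN. In HEK WT, CA13 was at -0.15 ± 0.233 (edgeR adjusted p = 0.616) and CA11 did not pass the filter. CA12 and CA3 had positive values in both genotypes, 0.52 and 0.85 in HEK WT and 0.32 and 0.67 in HEK UL1 KO, none of which passed the test (edgeR adjusted p = 0.0915 to 0.261), although in HEK UL1 KO CA3 passed without replicate 2 in NO (0.93, 0.0387) and with total counts (1.45, 0.00397). CA12 passed there with total counts (1.08, edgeR adjusted p = 0.000144), with TMM without the rRNA genes (0.42, 0.0364) and with at least 10 counts in every library (0.76, 0.00341). CA9 did not pass the filter, and in HEK UL1 KO it was called without a filter and when replicate 3 in NO or replicate 3 in CN was left out, on 1 to 5 counts per library in CN. In all, and with CA4, CA11 and CA14 counted where called, 2 members were higher and 3 lower in NO of HEK WT, beside 31.9 and 20.9% of all genes. In NO of HEK UL1 KO, 2 were higher and 5 lower, beside 40.7 and 35.6%.

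**Figure D4:**
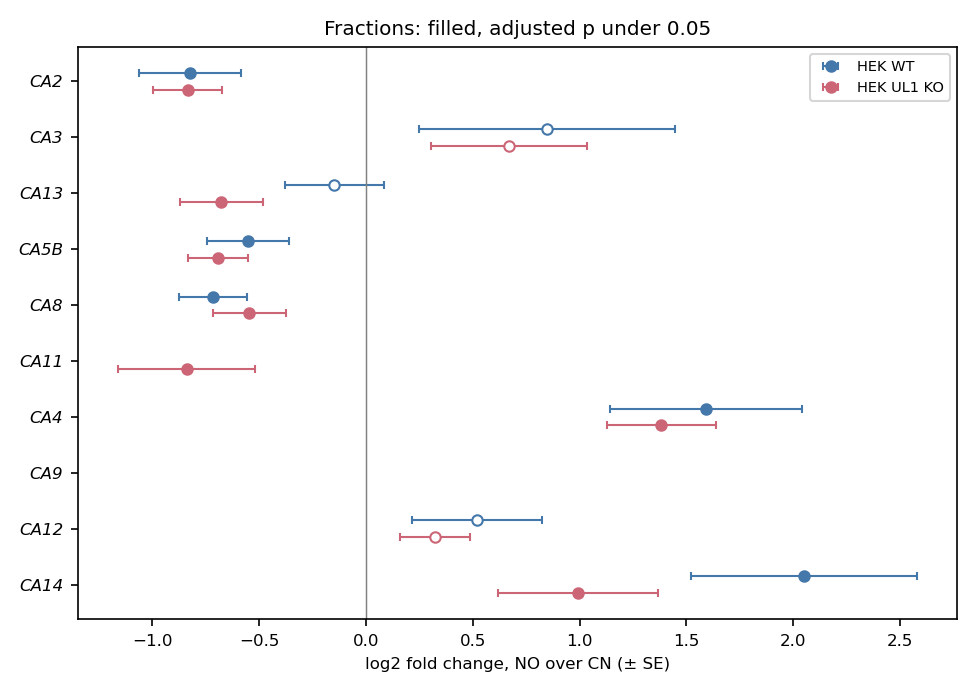
Log2 fold change of NO over CN (± SE) of each member in HEK WT and in HEK UL1 KO, filled where the adjusted p was under 0.05. CA2 lies at -0.82 and -0.83 in the 2 genotypes, and CA9 was not tested. CA4 and CA14 lie to the right of 0, CA4 having 9 to 17 counts per library in CN of HEK WT and CA14 having 2 to 9 in CN.

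A further 12 genes of the family were looked at: CA1, CA5A, CA6, CA7, CA10, 4 pseudogenes, CA3-AS1 and the receptor phosphatases PTPRG and PTPRZ1, which carry a carbonic anhydrase-like domain. In CN, 7 were tested, and 1 was higher and 1 lower, beside 15.6 and 22.3% of all genes, so this count is near the background. In NO 10 were tested and 0 called by edgeR, also 0 at an unadjusted p under 0.05, beside 0.365% higher and 0.574% lower of all genes. The one that rose was CA10, an inactive relative found in brain, at 1.79, 1.54 and 0.504 CPM in CN of HEK WT and 2.39, 2.47 and 3.86 CPM in CN of HEK UL1 KO. The groups did not overlap, and the log2 fold change was 1.24 ± 0.363 (edgeR adjusted p = 0.0207), lost without replicate 3 of HEK UL1 KO (1.00, edgeR adjusted p = 0.0882) and under DESeq2. The one that fell was CA3-AS1, described above.

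Genes that work with carbonic anhydrases were then counted by list. Of 19 bicarbonate transporter genes, 2 rose and 3 fell in CN, with a median log2 fold change of 0.229 over the list beside 0.0382 over all genes, of which 15.6% were higher and 22.3% lower. SLC4A7, a sodium bicarbonate cotransporter, fell by 0.94 on the log2 scale (24.7 ± 1.19 to 12.2 ± 0.448 CPM, edgeR adjusted p = 5.72e-06). SLC4A5, another cotransporter of this kind, rose by 1.59 (1.55 ± 0.717 to 4.47 ± 0.306 CPM, edgeR adjusted p = 0.00144). Both kept their call whichever library was left out. SLC4A8 (0.54), SLC26A6 (-0.89) and SLC4A11 (-0.82) passed less firmly, and lost the call when any of 2, 2 and 5 of the 6 libraries was left out (edgeR adjusted p = 0.0511 to 0.139). For SLC4A8 and SLC26A6 these were replicates 1 and 2 of HEK UL1 KO, and SLC4A11 kept its call only without replicate 1 of HEK WT.

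Among proton and lactate exporter genes, the proton channel HVCN1 rose in CN by 1.67 on the log2 scale (0.269 ± 0.0818 to 0.819 ± 0.158 CPM, edgeR adjusted p = 0.00163). With 11 to 53 counts per library in CN, HVCN1 entered the test through HEK UL1 KO, where it was higher, so its call is a description. The monocarboxylate transporters SLC16A7 (0.31) and SLC16A1 (-0.26) also passed, and lost the call when any of 4 and 3 of the 6 libraries was left out (edgeR adjusted p = 0.0569 to 0.145), replicate 1 of each genotype among them for both. Of all genes tested in CN, 15.6% were higher and 22.3% lower. In NO, 0 of the 19 transporters and 0 of the 9 exporters tested were called by edgeR, with 3 and 3 at an unadjusted p under 0.05. Of all genes tested in NO, 0.365% were higher and 0.574% lower, so a count of 0 is near this background.

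Of 24 genes known to be induced by hypoxia, 23 were tested in CN, of which 3 rose and 11 fell, beside 15.6% higher and 22.3% lower of all genes. The median log2 fold change was -0.313 in CN and -0.361 in NO, beside 0.0382 and 0.00396 over all genes. In NO 0 were called by edgeR and 4 had an unadjusted p under 0.05, beside 0.365% higher and 0.574% lower of all genes called. NDRG1, a stress-responsive gene, rose by 1.05 (4.14 ± 0.403 to 8.09 ± 0.638 CPM, edgeR adjusted p = 4.74e-05), and BNIP3L, a mitophagy receptor, by 0.41 (edgeR adjusted p = 0.00725). BNIP3L lost its call under DESeq2 (0.35, DESeq2 adjusted p = 0.0664). ANKRD37 (0.96) lost its call without replicate 1 of HEK WT or replicate 1 or 2 of HEK UL1 KO (edgeR adjusted p = 0.0765 to 0.128). Among those that fell were EGLN1, the oxygen-sensing prolyl hydroxylase (-0.75, 20.3 ± 0.134 to 11.4 ± 0.692 CPM, edgeR adjusted p = 2.69e-05), and MXI1, a MYC antagonist (-0.84, edgeR adjusted p = 3.43e-05). The hormone gene STC2 fell by 0.94 (edgeR adjusted p = 0.00276; 0.0531 with total counts), and LOX, a collagen crosslinking enzyme, was at -0.49 and lost its call when any of 5 of the 6 libraries was left out, all but replicate 2 of HEK WT (edgeR adjusted p = 0.0533 to 0.0877). CA12, which rose, and CA9, at the limit of counting, are not in this list.

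**Figure D5:**
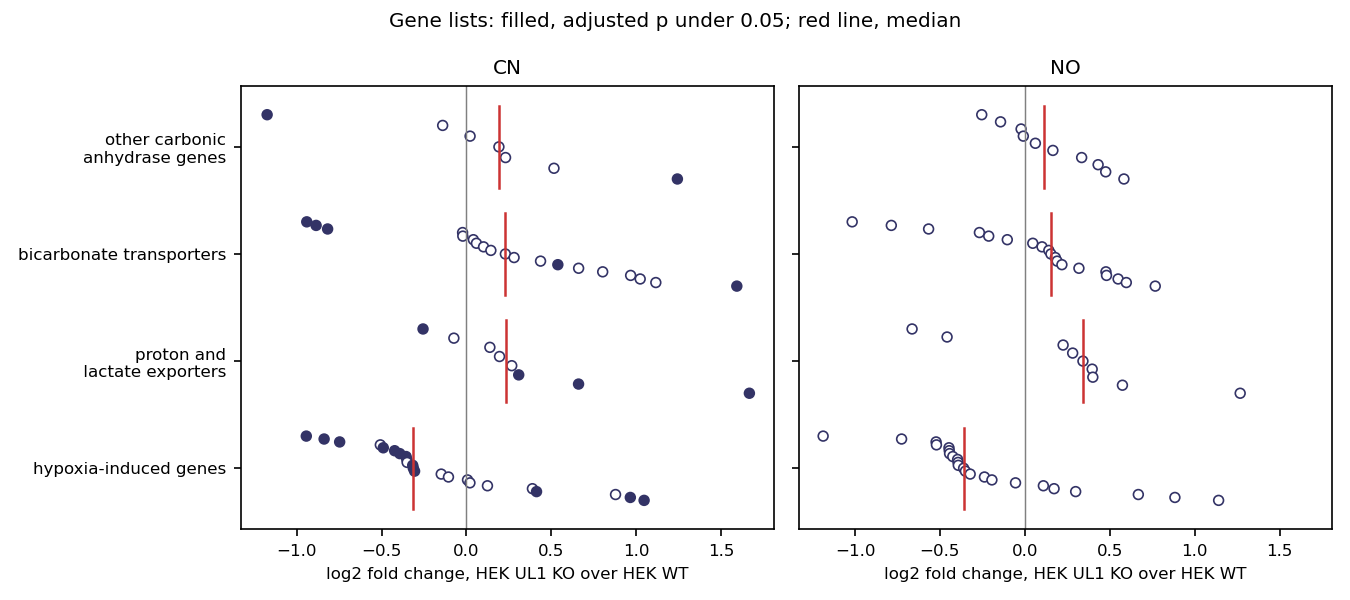
Log2 fold change (HEK UL1 KO over HEK WT) of the tested genes of 4 lists in CN and NO, filled where the adjusted p was under 0.05, with the median of each list as a red line. In CN, 3 hypoxia-induced genes rose and 11 fell, and in NO no point is filled.

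CA2 is also known from red cells and osteoclasts. Of 12 erythroid genes, 3 were tested in CN and 5 in NO and 0 were called by edgeR in either fraction (1 and 1 at an unadjusted p under 0.05). Of 12 osteoclast genes, 8 were tested in CN, where NFATC1 alone passed (0.60, edgeR adjusted p = 0.0139). Without replicate 1 of HEK UL1 KO it was at 0.47 (edgeR adjusted p = 0.0847). In NO 10 were tested and 0 passed by edgeR, also 0 at an unadjusted p under 0.05. Of all genes tested, 15.6% were higher and 22.3% lower in CN, and 0.365% higher and 0.574% lower in NO. The counts are therefore not read as a result about either list.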

How the data were processed

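RNA of 12 libraries was analysed, 3 replicates for each genotype (HEK WT, HEK UL1 KO) in each fraction (NO, CN). According to the paper's methods and the submitters' processing notes, single reads were checked with FastQC 0.11.4, trimmed with cutadapt 3.7, aligned to GRCh38 with STAR 2.7.8 and counted with featureCounts. Reads with several alignments were kept up to a limit, and the counting options, strand setting and annotation version are not given in the sources used here. Raw counts were deposited by the authors without normalization, one table per fraction, and 0 columns were left unmatched. The members and gene lists were chosen with earlier results of these data known.

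Counts were analysed with R 4.3.3 and edgeR 4.0.16 (quasi-likelihood F test, filterByExpr with a minimum count of 10 and a minimum total of 15, TMM normalization over all genes within the libraries of each fit, no replicate block). P values were adjusted by the Benjamini-Hochberg method over all genes tested and called under 0.05. Displayed levels are CPM with TMM factors over all 12 libraries. They therefore give slightly different folds from the fits. Levels were compared between genes only per kilobase of exonic length in GENCODE 44. The ratio of CA2 to CA8 counts was compared only between libraries. Positions and promoters are those of RefSeq on GRCh38.p14, and both promoters sought were found and searched for the letters ACGTG and GCGTG on both strands. CA2 was selected on its fall in the knockout, so it was not tested there.

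Alternatives were DESeq2 1.42.0, its size factors, total counts, TMM without the 616 rRNA entries, no filter, at least 10 counts in every library, a replicate block, all 12 libraries in one fit, and leaving out each library. The procedures were tested on simulated data. Figures were drawn with matplotlib 3.10.9 under Python 3.11.15.

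All 10 members were named in every comparison, with HNRNPUL1 as the target. Of each list, the genes that passed the test were named, up to the 4 largest changes in each direction, and of the genes most like CA2 the closest 5. One result of the exporter list is not reported here. Neighbours were the genes whose start lies within 1 Mb of that of CA2. The chi-square per gene between libraries of a group was at least 14.3, above counting noise, so no 2 libraries were counted as 1. Depth ranged from 37141666 to 104040073 counts per library, and a count of 0 allows up to 3 counts. This covers counting error only.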

Additional observations from a re-analysis of the deposited data

How the results depend on the processing

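CA2 was lower in every alternative run in both fractions, at -2.92 in NO and -3.436 in CN with total counts (log2 fold change), when the median of all genes was 0.399 in NO and 0.241 in CN, against 0.00396 and 0.0382 with TMM. With total counts 10 genes in all were called in NO, and HNRNPUL1, at -1.42, was not among them. Of the 9 other members, 0 were called between the genotypes in NO, and 1 with DESeq2 or without a filter (CA8), 2 with all 12 libraries in one fit (CA8 and CA12) and 0 to 2 when 1 library was left out, the 2 being without replicate 3 of HEK WT. In CN the count was 2, and 1 with all 12 libraries (CA8; CA12 then had an edgeR adjusted p = 0.0541) and 2 to 3 without 1 library. CA11 passed in CN when at least 10 counts were asked of every library (0.97, edgeR adjusted p = 0.0151). Between the fractions in HEK WT the 5 calls became 1 with total counts (CA14), 4 with TMM without the rRNA entries (without CA5B), 2 with at least 10 counts in every library, 2 with the replicate block and 3 to 5 without 1 library. In HEK UL1 KO the 7 calls became 4 with total counts (CA3, CA4, CA12 and CA14, all higher in NO), 6 with TMM without the rRNA entries (without CA8 and CA11, with CA12), 3 with at least 10 counts in every library, 5 with the replicate block and 5 to 8 without 1 library. In the interaction, the count was 0 in every alternative run. The cause of these differences was not tested.

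With total counts, between the genotypes in NO, CA5B turned to 0.19, CA11 to 0.40, CA13 to 0.23 and CA14 to 0.19, and CA11 was at 0.01623 with all 12 libraries. Between the fractions CA13 in HEK WT turned to 0.22 with total counts and 0.10 with at least 10 counts in every library, and in HEK UL1 KO CA5B turned to 0.0691, CA8 to 0.22 and CA13 to 0.10 with total counts. Without a filter, the interaction values of CA3 (-0.01547), CA4 (-0.04009), CA5B (-0.0002153) and CA12 (-0.03274) changed sign. Leaving out 1 library at a time, values between the genotypes in NO ran from -0.2222 to 0.2283 for CA11 and from -0.4023 to 0.07246 for CA14. Interaction values ran from -0.04389 to 0.5163 for CA2, from -0.8236 to 0.4237 for CA3, from -0.07196 to 0.4406 for CA4, from -0.04209 to 0.3176 for CA5B, from -0.1205 to 1.64 for CA9 and from -0.0495 to 0.2839 for CA12. CA2 was not tested here. None of the other values passed the test after changing sign, but CA5B, CA8 and CA13 between the fractions in HEK UL1 KO had passed it with TMM.

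No label says whether NO and CN libraries of the same number came from 1 culture, although the paper took both fractions from fractionated cells. Between NO and CN libraries of the same genotype and number, the correlation of deviations from the group means was -0.456 to -0.0698. No library correlated best with its own number. These correlations cannot settle whether the fractions were paired, because a pairing need not make deviations alike in 2 parts of the same cells. With the replicate block, the members called were 0 in NO and 2 in CN between the genotypes. Between the fractions in HEK WT, CA2 and CA8 were called with it, and CA4 (1.52, edgeR adjusted p = 0.0755), CA14 (2.08, 0.0547) and CA5B (-0.55, 0.0806) were not, and in HEK UL1 KO CA11 (-0.86, 0.0553) and CA14 (0.93, 0.0652) were not. The members CA3, CA4, CA9, CA11 and CA14 had few counts, so small changes in them were not detectable at this depth. Members without overlap between the genotypes were CA8 and CA12 in NO under all 3 scalings (TMM, TMM without the rRNA entries, total counts). In CN they were CA5B, CA8, CA11 and CA12 under the first 2, and CA13 in place of CA5B with total counts.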
